A study of Rattus norvegicus with 74 samples.

Results

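Immune cells live in skeletal muscle and in the heart, and their RNA is part of any library made from whole tissue. A set of 36 genes that mark B cells, T cells, macrophages, monocytes, neutrophils and dendritic cells was followed by symbol through the count tables of red gastrocnemius muscle, of mitochondria isolated from that muscle and of the left ventricle. Of the 36 genes, 34 were found among the 30560 genes of each table. Cd4 and Gzmb were not found by symbol, and their expression is not analysed here. The 34 genes fell into 7 roles: 5 genes of B and plasma cells, 5 of T and cytotoxic cells, 10 of macrophages, 6 of monocytes and neutrophils, 3 of antigen presentation and dendritic cells, 3 grouped as shared leukocyte genes, and 2 chemokines. The shared group holds Ptprc, the leukocyte common antigen, beside Tyrobp and Aif1, which are genes of myeloid cells and macrophages.

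The animals were male wild-type Wistar Kyoto rats, 9 weeks old at sampling. The trained rats (ExT) began treadmill running when 5 weeks old and kept it up for 4 weeks, with 5 sessions of 60 min each week. The belt moved at 15 m/min in the first week and at 20 m/min afterwards. The sedentary rats (Sed) stood on a treadmill that was switched off, and tissue was collected 24 h after the last session. Rats of both arms drank water with 8% deuterium oxide. Whole red gastrocnemius (SM) and mitochondria caught from it with an antibody, then digested with proteinase-K and RNase-A (MT), were sequenced from 15 Sed and 15 ExT rats. The left ventricle (LV) came from 7 Sed and 7 ExT rats out of those 30. Each library is 1 rat, and some values are also given by range of the rat number, 2 to 16 and 17 to 32. No leukocyte was sorted or counted, so fewer cells of a type and less RNA per cell cannot be told apart in any value below.

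As background, resident macrophages clear debris in both tissues and carry scavenger and complement genes (Cd163, Mrc1, C1qa). Circulating monocytes enter through the receptor Ccr2 and neutrophils carry the calcium-binding proteins S100a8 and S100a9. Dendritic cells and B cells load peptides on MHC class II with the help of Cd74. B cells signal through the pair Cd79a and Cd79b, and T cells through the CD3 chains. Plasma cells make antibody with the endoplasmic reticulum protein Mzb1 and the joining chain Jchain.

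An SM library held 19477976 to 39401323 counts, an LV library 54645657 to 75758777 and an MT library 530397 to 9988027. Levels are given as CPM, the count of a gene scaled to a common total of nuclear-encoded counts per library, which leaves out the 37 genes of the mitochondrial genome. A library level of 3 counts, the floor used here, equalled 0.115 to 0.226 CPM in SM, 0.0713 to 0.101 CPM in LV and 2.84 to 6.97 CPM in MT. The tissue labels matched their markers: 8 muscle fibre genes took a median of 16.1% of nuclear-encoded counts in SM_Sed and 0.847% in LV_Sed, and 7 cardiomyocyte genes took 0.00504% and 5.15%. Some libraries stood apart in other cells' genes. The summed level of the 10 macrophage genes was 321 CPM in SM_Sed rat 24 and 240 CPM in rat 11, against a median of 156 CPM. The 7 red blood cell genes summed to 80.9 CPM in LV_Sed rat 29, against a median of 645 CPM, and the 6 fat cell genes to 57.5 CPM in SM_Sed rat 8, against a median of 8.54 CPM. LV and SM libraries were made with different kits and from 100 ng and 50 ng of RNA, so tissue and library kit cannot be told apart.

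Every macrophage gene was above the floor in every SM and LV library. No gene length was at hand, so levels are compared between groups for 1 gene and not between genes. Lyz2, the lysozyme of phagocytes, had a lowest, median and highest value of 24.2, 40.3 and 62.2 CPM in SM_Sed and of 22.8, 36.3 and 48.6 CPM in SM_ExT. In LV it reached 59.6, 99 and 128 CPM in Sed and 60.02, 93 and 97.3 CPM in ExT. C1qa, the A chain of the first complement component, had 6.33, 11.4 and 29.97 CPM in SM_Sed and 6.45, 9.90 and 15.1 CPM in SM_ExT. The Sed maximum was the library of rat 24, and the 2 arms overlapped over most of their range. In LV, C1qa had 18.3, 38.2 and 46.7 CPM in Sed and 21.6, 33.5 and 38.7 CPM in ExT.

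The 10 macrophage genes varied together from rat to rat, as the map of macrophage genes by rat shows. Over the 30 SM libraries the 45 pairs had Spearman correlations from 0.49 to 0.92 with a median of 0.76, and over the 14 LV libraries from 0.39 to 0.96 with a median of 0.81. These are descriptions across libraries that share a tissue, and each pair shares the library totals used for scaling. The upstream 250 bases are shown for 3 genes picked from the macrophage genes that hold the purine-rich motif GAGGAA. This is the core recognised by PU.1, a transcription factor of myeloid and B cells. Whether the motif has a part in the shared variation was not tested. The sequences are from RefSeq on GRCr8 and end at the base before the annotated start. Capitals mark GAGGAA or its reverse complement TTCCTC. They are C1qb at chr5:154407828-154408077 (minus strand), Mrc1, the mannose receptor, at chr17:82157475-82157724 (plus strand) and Lyz2 at chr7:54798012-54798261 (minus strand).
C1qb: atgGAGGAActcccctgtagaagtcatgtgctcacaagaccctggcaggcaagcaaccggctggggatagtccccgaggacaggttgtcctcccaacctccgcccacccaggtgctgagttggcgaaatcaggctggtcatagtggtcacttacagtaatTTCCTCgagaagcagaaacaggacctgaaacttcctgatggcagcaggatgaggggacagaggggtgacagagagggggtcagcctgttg
Mrc1: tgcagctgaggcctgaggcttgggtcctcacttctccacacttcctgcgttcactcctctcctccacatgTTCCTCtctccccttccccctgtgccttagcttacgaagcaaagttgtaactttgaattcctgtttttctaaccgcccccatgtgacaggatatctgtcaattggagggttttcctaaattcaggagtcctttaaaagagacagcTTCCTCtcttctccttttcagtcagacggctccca
Lyz2: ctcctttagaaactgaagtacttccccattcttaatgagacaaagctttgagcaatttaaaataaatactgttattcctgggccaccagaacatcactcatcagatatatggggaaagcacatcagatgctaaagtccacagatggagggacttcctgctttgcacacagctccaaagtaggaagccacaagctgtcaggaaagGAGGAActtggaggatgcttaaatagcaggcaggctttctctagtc
Promoter windows of 300 bases (250 before and 50 after the start) were at hand for 27 of the 36 genes. GAGGAA was present on either strand in 13 of the 27, against 27.5% of all 27457 windows of the same length. By role it was in 6 of 9 macrophage windows, those of Adgre1, C1qb, Cd68, Csf1r, Lyz2 and Mrc1. The windows of C1qa, Cd163 and Lyve1, which varied with these genes, held no match, and C1qc had no window at hand. It was in 1 of 6 T and cytotoxic windows, that of Cd3e, where the window of Gzmb is counted among the 6 and holds no match. In the printed sequences the motif begins 247 and 90 bases before the start of C1qb, 180 and 35 before Mrc1 and 46 before Lyz2. A match describes letters and no binding was measured.

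**Figure D1:**
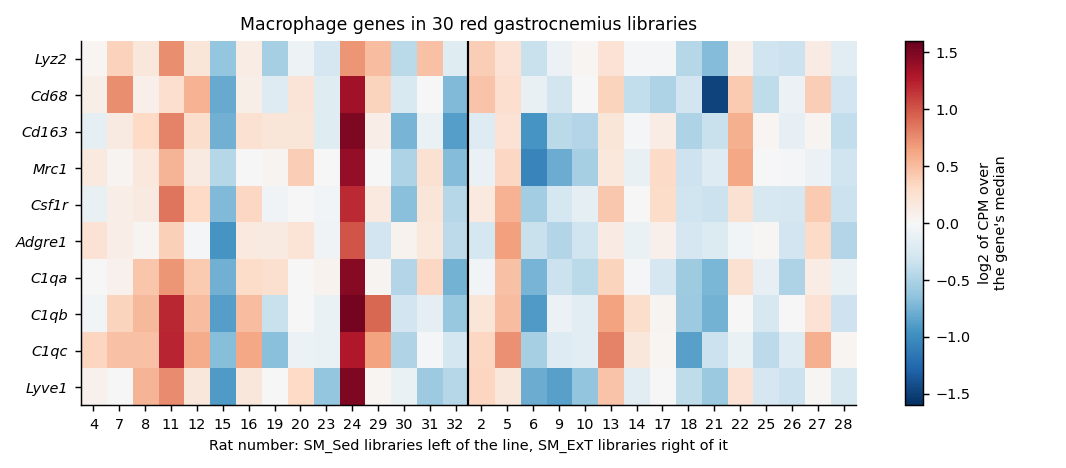
Level of each of 10 macrophage genes (rows) in each of 30 red gastrocnemius libraries (columns, by rat number), as log2 of CPM plus 0.1 over the gene's median. SM_Sed rats 8, 11, 16 and 24 and SM_ExT rats 5 and 13 lie above the gene's median in all 10 rows. Rats 15 and 32 (Sed) and 6, 9, 18 and 21 (ExT) lie below the gene's median in all 10.

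Other members followed the macrophage genes to differing degrees. In SM, the median Spearman correlation with the 10 genes was 0.74 for Cd74, 0.68 for Itgam, the alpha M integrin of myeloid cells, and 0.68 for Tyrobp, a signalling adaptor of myeloid receptors. It was -0.17 for Mzb1, -0.04 for S100a9 and -0.04 for Cxcl12. In LV, Cd74 had a median of -0.18, whereas Itgam had 0.82 and Cx3cr1, the fractalkine receptor, 0.74. The correlation of Cd74 in SM and LV was not tested for a difference.

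B and plasma cell genes were low in both tissues, with Jchain, Cd79a, Cd79b and Ms4a1 near the floor in SM. Mzb1 had 0.518, 0.973 and 1.81 CPM (lowest, median, highest) in SM_Sed and 0.226, 1.11 and 1.56 CPM in SM_ExT. In LV it had 0.133, 0.214 and 0.423 CPM in Sed and 0.395, 0.634 and 1.16 CPM in ExT, from 5 to 15 counts per Sed library and 13 to 39 per ExT library. Median counts per SM_Sed library were 3 for Jchain, 4 for Cd79a, 2 for Cd79b and 1 for Ms4a1, the gene of CD20. Ms4a1 had 0 counts in 9 of 15 SM_ExT libraries, which allows up to 0.115 to 0.226 CPM by the floor of 3 counts, for counting error only. In LV, Cd79b had a median of 19 counts in Sed and 15 in ExT.

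T and cytotoxic cell genes were low as well. Prf1, the pore-forming protein of killer cells, had 0.518, 0.929 and 2.54 CPM in SM_Sed and 0.664, 1.48 and 1.88 CPM in SM_ExT. LV values of Prf1 were 1.53, 1.88 and 2.97 CPM in Sed and 1.73, 2.22 and 2.62 CPM in ExT. Cd3e and Cd3g, chains of the T cell receptor complex, had median counts of 3 and 1 in SM_Sed. Cd3g was at 0 counts in 5 of 7 LV_Sed and 4 of 7 LV_ExT libraries. Cd8a, the coreceptor of killer T cells, and Nkg7, a granule protein, had median counts of 5 each in SM_Sed and of 19 and 40 in LV_Sed.

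Among monocyte and neutrophil genes, Itgam had 2.27, 3.89 and 8.24 CPM in Sed and 1.84, 3.15 and 4.69 CPM in ExT in SM, and 4.51, 6.94 and 7.96 CPM in LV_Sed and 4.88, 6.07 and 7.82 CPM in LV_ExT. S100a9 had medians of 0.674, 0.617, 0.849 and 0.977 CPM in SM_Sed, SM_ExT, LV_Sed and LV_ExT, and the 4 groups overlapped. Among genes of antigen presentation, Cd74, the MHC class II invariant chain, had 26.2, 43.3 and 56.7 CPM in SM_Sed and 24.6, 35.9 and 53.3 CPM in SM_ExT. LV values of Cd74 were 273, 298 and 324 CPM in Sed and 279, 314 and 352 CPM in ExT, all above every SM library. Ptprc, the leukocyte common antigen CD45, had 8.54, 11 and 19.3 CPM in SM_Sed and 8.86, 9.44 and 14.3 CPM in SM_ExT. In LV it had 30.6, 38.1 and 42.4 CPM in Sed and 25.5, 32.7 and 45.1 CPM in ExT. Cxcl12, a chemokine made mainly by stromal and endothelial cells, had 111, 177 and 269 CPM in SM_Sed and 181, 221 and 290 CPM in SM_ExT. Its LV values of 184, 208 and 257 CPM in Sed and 165, 206 and 242 CPM in ExT lay within that range. Across the 34 genes the order of median levels was much the same in SM and LV (Spearman rho 0.95, across genes, a description).

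The other members that were called between tissues are given by their lowest, median and highest library, over all 30 SM and 14 LV libraries. Mrc1 had 9.55, 16 and 41.3 CPM in SM_Sed and 7.42, 14.5 and 23.8 CPM in SM_ExT, against 24.4, 57.3 and 64.3 CPM in LV_Sed and 32.5, 45.9 and 65.2 CPM in LV_ExT. For Csf1r the values were 14.3, 25.1 and 53.2 CPM in SM_Sed, 15.8, 21 and 34.2 CPM in SM_ExT, 26.2, 55.4 and 56.8 CPM in LV_Sed and 34.4, 44.5 and 54.2 CPM in LV_ExT. In SM, Adgre1 reached 1.78, 3.78 and 7.14 CPM in Sed and 2.5, 3 and 5.58 CPM in ExT, and in LV 10.1, 16.6 and 20.1 CPM in Sed and 10.1, 14.1 and 17.7 CPM in ExT. Every LV library of Adgre1 lay above every SM library, and the ranges of Mrc1 and Csf1r overlapped. C1qb, the B chain of the complement component, had 3.97, 7.46 and 21.7 CPM in SM_Sed and 3.91, 7.39 and 11.6 CPM in SM_ExT, against 9.79, 22.9 and 27.6 CPM in LV_Sed and 12.8, 19.7 and 23.3 CPM in LV_ExT. For C1qc, its C chain, the values were 6.5, 13.4 and 25.6 CPM in SM_Sed, 5.7, 9.76 and 18.3 CPM in SM_ExT, 19.6, 42.4 and 46.7 CPM in LV_Sed and 22.6, 34.2 and 42.9 CPM in LV_ExT. In SM, Lyve1 reached 3.45, 6.74 and 18.6 CPM in Sed and 3.56, 5.46 and 9.06 CPM in ExT, and in LV 5.83, 16.2 and 19.5 CPM in Sed and 8.05, 13.1 and 18.4 CPM in ExT. The tissues overlapped for C1qb, C1qc and Lyve1. Cd68 had 0.979, 1.91 and 4.7 CPM in SM_Sed and 0.577, 1.64 and 2.48 CPM in SM_ExT, against 1.94, 3.87 and 4.29 CPM in LV_Sed and 2.34, 3.02 and 4.2 CPM in LV_ExT. For Itgax the values were 1.55, 2.38 and 3.03 CPM in SM_Sed, 0.99, 2.18 and 3.23 CPM in SM_ExT, 14.3, 18.6 and 22.1 CPM in LV_Sed and 14.8, 17.7 and 19.3 CPM in LV_ExT. In SM, Wdfy4 reached 2.98, 4.54 and 6.45 CPM in Sed and 2.35, 3.84 and 6.25 CPM in ExT, and in LV 12.3, 13.8 and 14.9 CPM in Sed and 13.1, 15.7 and 24.1 CPM in ExT. Every LV library of Itgax and Wdfy4 lay above every SM library, and the ranges of Cd68 overlapped. Tyrobp had 2.17, 3.13 and 5.4 CPM in SM_Sed and 1.86, 2.8 and 4.46 CPM in SM_ExT, against 5.17, 8.74 and 9.999 CPM in LV_Sed and 5.81, 7.17 and 9.21 CPM in LV_ExT. For Aif1 the values were 0.633, 1.86 and 4.14 CPM in SM_Sed, 0.858, 1.93 and 2.79 CPM in SM_ExT, 5.22, 6.8 and 9.94 CPM in LV_Sed and 4.73, 7.34 and 9.48 CPM in LV_ExT. In SM, Nkg7 reached 0, 0.317 and 0.687 CPM in Sed and 0.0566, 0.226 and 0.712 CPM in ExT, and in LV 0.689, 1.13 and 1.25 CPM in Sed and 0.341, 0.898 and 1.51 CPM in ExT. Every LV library of Aif1 lay above every SM library, and the ranges of Tyrobp and Nkg7 overlapped. Ccr2 had 0.483, 1.29 and 2.72 CPM in SM_Sed and 0.582, 1.23 and 2.03 CPM in SM_ExT, against 4.96, 7.49 and 9.26 CPM in LV_Sed and 4.46, 6.27 and 8.49 CPM in LV_ExT. For Cx3cr1 the values were 0.14, 0.368 and 1.03 CPM in SM_Sed, 0.283, 0.537 and 1.43 CPM in SM_ExT, 2.2, 3.48 and 9.08 CPM in LV_Sed and 2.5, 2.65 and 4.61 CPM in LV_ExT. In SM, Ccl2 reached 0.115, 0.37 and 1.09 CPM in Sed and 0.113, 0.247 and 0.938 CPM in ExT, and in LV 2.04, 3.58 and 5.9 CPM in Sed and 1.58, 3.22 and 5.14 CPM in ExT. Every LV library of Ccr2, Cx3cr1 and Ccl2 lay above every SM library. Il1b had 0.0576, 0.317 and 0.834 CPM in SM_Sed and 0.0385, 0.25 and 0.593 CPM in SM_ExT, against 0.3, 0.818 and 1.15 CPM in LV_Sed and 0.366, 0.815 and 1.28 CPM in LV_ExT. The tissues overlapped for Il1b.

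**Figure D2:**
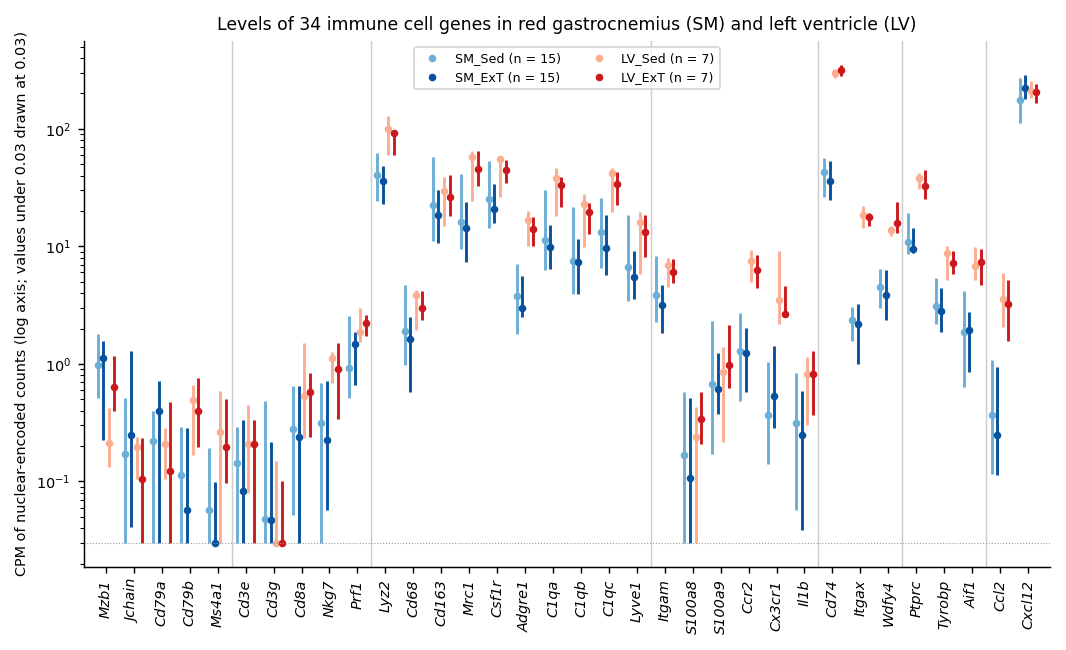
Median (point) and range (line) of each of 34 immune cell genes in SM_Sed, SM_ExT, LV_Sed and LV_ExT, in CPM of nuclear-encoded counts on a log axis, with vertical lines between roles. Cd74 reached 273 to 352 CPM in LV against 24.6 to 56.7 CPM in SM, whereas Mzb1 was higher in SM.

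The comparison of ExT with Sed in SM asks which immune cell genes changed with training in muscle. None of the 22 members that passed the filter on low counts was called by edgeR's quasi-likelihood test at an adjusted p under 0.05, and none by DESeq2. The background was 28 calls among 13570 genes, 0.206%. Of the 22 genes, 20 had a negative log2 fold change and 9 an unadjusted p under 0.05, with a median of -0.26 against -0.0055 over all genes, where 1860 had such a p. All 10 macrophage genes were on the negative side. Among all 22, the smallest p belonged to Ptprc, at -0.26 (SE 0.087, unadjusted p = 0.0048, adjusted p = 0.18 by edgeR). Cxcl12, on the positive side, came next (unadjusted p = 0.0104). C1qa was at -0.44 (SE 0.16, adjusted p = 0.22 by edgeR) and Itgam at -0.39 (SE 0.15, adjusted p = 0.23). The plot of training effects shows both tissues.

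Leaving out the 2 sedentary libraries of highest macrophage level moves the macrophage genes toward 0 by construction, and the values are given for their size. Without SM_Sed rats 11 and 24, a choice made after seeing the data, 19 of 22 members stayed negative with a median of -0.155. C1qa was then at -0.26 (adjusted p = 0.40 by edgeR), Lyve1, a hyaluronan receptor of perivascular macrophages and lymphatic vessels, moved from -0.41 to -0.20, and Cd163, the haemoglobin scavenger receptor, from -0.35 to -0.14. The macrophage genes summed to 84.7, 156 and 321 CPM in SM_Sed and 88.4, 120 and 180 CPM in SM_ExT (lowest, median, highest). The 7 red blood cell genes found of 10 listed summed to 91.5, 161 and 312 CPM in SM_Sed and 95.2, 195 and 319 CPM in SM_ExT. The 9 endothelial genes summed to 560, 871 and 1210 CPM in Sed and 847, 1014 and 1331 CPM in ExT. In the test of training in SM, the median log2 fold change was 0.204 for the 9 endothelial and 0.180 for 5 red blood cell genes. It was -0.172 for 8 fibroblast genes (Col1a1 -0.573), -0.209 for 5 mast cell genes and -0.671 for 2 fat cell genes, and none of these genes was called. The part of these other cells in the immune values was not tested.

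**Figure D3:**
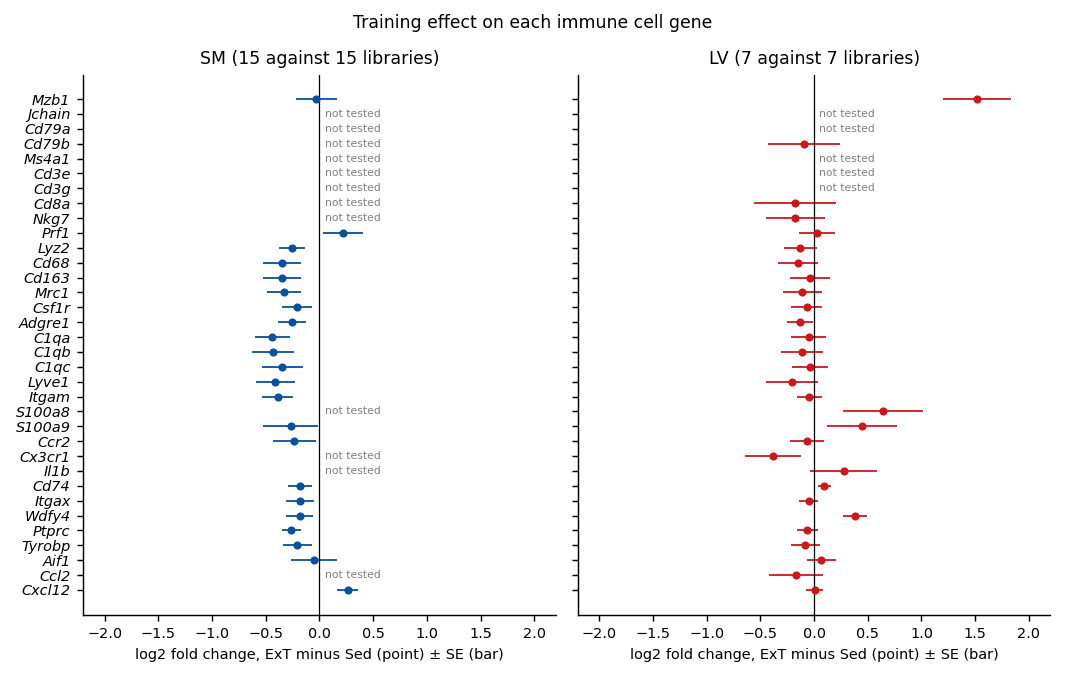
Log2 fold change of ExT minus Sed for each immune cell gene in SM (left) and LV (right), with the standard error as a bar; genes under the count filter are marked as not tested. In SM 20 of 22 points lie left of 0, and in LV the point farthest from 0 is Mzb1 at 1.51.

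Cxcl12 and Prf1 were the 2 genes on the positive side in SM. Cxcl12 stood at 0.26 on the log2 scale (SE 0.097, adjusted p = 0.22 by edgeR) over 15 against 15 libraries. Among rats 2 to 16 it was called, at 0.61 (SE 0.11, edgeR adjusted p = 0.012), where 2.95% of 13423 genes were called. Among rats 17 to 32 it was -0.004 (SE 0.11, adjusted p = 0.997). In rats 2 to 16, 7 Sed libraries had 111, 151 and 197 CPM (lowest, median, highest) and 7 ExT libraries 193, 248.9 and 290 CPM. In rats 17 to 32, 8 Sed libraries had 142, 223 and 269 CPM and 8 ExT libraries 181, 215 and 288 CPM. The difference between the ranges was -0.615 (SE 0.16, unadjusted p = 0.00055) and did not pass adjustment over 14033 genes (edgeR adjusted p = 0.19), where 0% were called. The summed endothelial genes had medians of 871 and 1038 CPM in Sed and ExT of rats 2 to 16 and 890 and 966 CPM in those of rats 17 to 32. Their part in the Cxcl12 values was not tested. Cxcr4, the receptor of Cxcl12, was at 0.22 (SE 0.12, adjusted p = 0.41 by edgeR) over all rats.

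In LV, the comparison of ExT with Sed called none of the 29 members tested with edgeR or DESeq2, against 0% of 14488 genes in edgeR's test. An unadjusted p under 0.05 was reached by 2 of them, Mzb1 and Wdfy4, and by 855 of all genes. Mzb1 had values of 0.133, 0.287, 0.214, 0.136, 0.240, 0.211 and 0.423 CPM in Sed rats 16, 19, 20, 29, 30, 31 and 32. In ExT rats 14, 17, 18, 25, 26, 27 and 28 it had 0.634, 0.7075, 0.437, 0.472, 1.16, 0.764 and 0.395 CPM. Of the 7 ExT values, 6 lay above every Sed value, and only the lowest ExT value fell below the highest Sed value. On the log2 scale ExT was higher by 1.51 (SE 0.32, unadjusted p = 0.00015, adjusted p = 0.80 by edgeR), and adjusted p-values under the other settings ran from 0.086 (DESeq2) to 1.0. Leaving out any 1 library kept the estimate between 1.33 and 1.71. Among rats 17 to 32 it was 1.44 (adjusted p = 0.32), and rats 2 to 16 gave 1 LV library per arm, too few for a test.

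Jchain, the other plasma cell gene of the set, had LV medians of 0.198 CPM in Sed and 0.106 CPM in ExT, with too few counts to be tested. Prob1, the gene next to Mzb1 in RefSeq on GRCr8, had medians of 22.6 CPM in LV_Sed and 26.1 CPM in LV_ExT and a training effect of 0.26 (SE 0.11, unadjusted p = 0.027, adjusted p = 0.80 by edgeR). Mzb1 and Prob1 had a Pearson r of 0.62 and a Spearman rho of 0.57 over 14 LV libraries (permutation p = 0.019 and 0.035, adjusted 0.052 and 0.11), with r = 0.58 without the 2 rats farthest from the median of Mzb1. Within arms r was 0.029 in Sed and 0.77 in ExT. In SM the same pair had r = 0.45 and rho = 0.57 over 30 libraries (permutation p = 0.012 and 0.0012, adjusted 0.041 and 0.0058), with r = 0.52 without the 2 farthest. This relation was looked at after seeing that the genes are neighbours, and the part of Prob1 reads in the Mzb1 counts was not tested.

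Wdfy4, which dendritic cells need to present antigen taken up from other cells, was the other one. Its Sed values were 12.3, 13.8, 14.9, 14.2, 12.5, 14.5 and 12.9 CPM in rats 16, 19, 20, 29, 30, 31 and 32. Its ExT values were 13.1, 15.7, 24.1, 14, 19.2, 19.6 and 14.2 CPM in rats 14, 17, 18, 25, 26, 27 and 28, and 4 of the 7 lay above every Sed value. The difference was 0.38 on the log2 scale (SE 0.11, unadjusted p = 0.0037, adjusted p = 0.80 by edgeR), and 0.29 without rat 18. Itgax, the alpha X integrin of dendritic cells, had -0.05 (SE 0.088), and Cd74 had 0.095 (SE 0.061). Macrophage genes in LV had a median of -0.11, all 10 between -0.205 and -0.038. The neutrophil genes S100a8 and S100a9 had 0.64 (SE 0.37) and 0.45 (SE 0.32), and none of these passed the test.

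**Figure D4:**
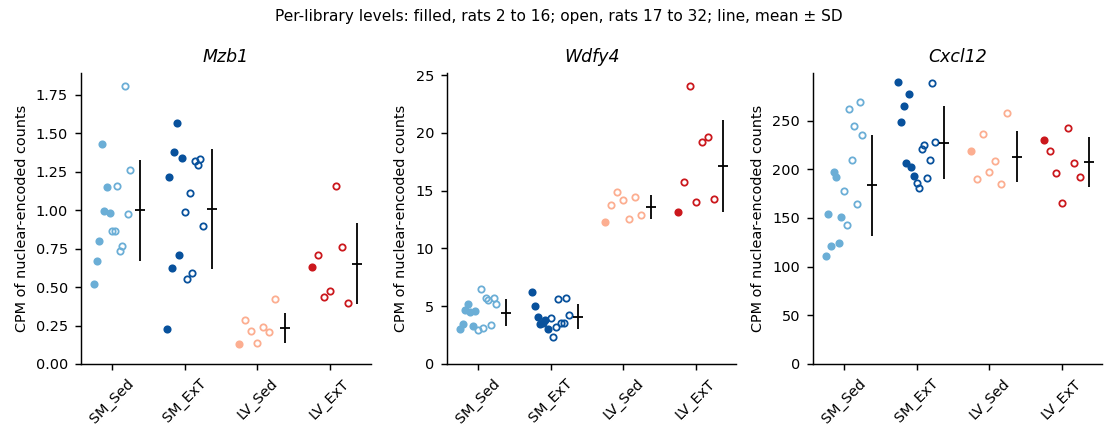
CPM of nuclear-encoded counts of Mzb1, Wdfy4 and Cxcl12 in every SM and LV library, filled for rats 2 to 16 and open for rats 17 to 32, with the group mean and SD as a line. For Mzb1, 6 of 7 LV_ExT libraries lie above all LV_Sed libraries; for Cxcl12, the filled SM_Sed points (111 to 197 CPM) lie below nearly all filled SM_ExT points.

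The training effects of LV and SM were set against each other in the 14 rats with both tissues. No member of 29 was called by edgeR or DESeq2, against 0% of 15049 genes by edgeR, and 2 members and 687 of all genes had an unadjusted p under 0.05. Mzb1 had a difference of 1.53 (SE 0.40, unadjusted p = 0.00066, edgeR adjusted p = 1.0) and Wdfy4 one of 0.78 (SE 0.21, unadjusted p = 0.0009, edgeR adjusted p = 1.0). In the 14 rats, SM values of Wdfy4 had medians of 5.196 CPM in Sed and 3.59 CPM in ExT. The other 27 members had differences from -0.88 for Cd79a to 1.06 for Cd79b, both with few counts.

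The comparison of LV with SM asks how the immune gene content of heart and red muscle differs. Most members were higher in LV: 19 of 27 tested in Sed rats and 21 of 27 in ExT rats, against 40% of 14367 and 39.7% of 14338 genes. In each arm 2 members, Mzb1 and Cxcl12, were lower, against 38.6% and 39.5% of all genes. The median log2 fold change of the members was 0.85 in Sed and 1.10 in ExT, and that of all genes 0.035 and 0.012. The fit scales libraries by TMM, which centres most genes near 0. On nuclear-encoded totals, the scale of the CPM values, the median of all genes was 0.60 in Sed and 0.50 in ExT, with 8997 genes higher and 3057 lower in Sed and 8531 and 3363 in ExT. The members called were then 24 higher and 1 lower in Sed and 23 and 1 in ExT. Ccl2, Cx3cr1, Il1b, Cd8a and Nkg7 did not pass the count filter in SM alone. They entered this comparison through LV, where their counts are higher, so their direction is a description and no support. The counts of members above include these genes and are to be read with that limit.

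In Sed rats the 3 antigen presentation and dendritic genes had a median difference of 2.36. Ptprc, Tyrobp and Aif1 had one of 1.15 and the 10 macrophage genes one of 0.825. The 5 monocyte and neutrophil genes had a median of 0.453 and ranged from -0.51 to 2.70, the latter for Cx3cr1, which entered through LV. Cd74 was 5.12-fold higher in LV of Sed rats (log2 fold change 2.36, SE 0.12, edgeR adjusted p = 8.5e-13) and 6.28-fold in ExT rats, in 7 of 7 rats of each arm. Itgax was 5.12-fold and 5.71-fold higher, with 14.3 to 22.1 CPM in LV_Sed against 2.00 to 3.03 CPM in SM of the same rats. Ccr2, the receptor that brings monocytes into tissue, had log2 fold changes of 1.93 (SE 0.23) and 2.14 (SE 0.19). Its ligand Ccl2 entered through LV, as did Cx3cr1 and Il1b, so the differences of these genes are descriptions only. For Ccl2 they were 2.26 (SE 0.30) and 3.02 (SE 0.33), with 2.04 to 5.90 CPM in LV_Sed against 0.257 to 1.09 CPM in SM_Sed of the same rats. Cx3cr1 had 2.70 (SE 0.39) and 1.95 (SE 0.26). In LV_Sed its values ran from 2.201 CPM to 9.08 CPM, the latter in rat 20. Il1b, an inflammatory cytokine, was called in ExT rats (1.24, SE 0.39) and not in Sed rats (0.29, SE 0.365), and the difference between arms did not pass the test (unadjusted p = 0.088, edgeR adjusted p = 1.0).

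Of the 10 macrophage genes, 8 were higher in LV of Sed rats and 9 in ExT rats. Adgre1, the F4/80 antigen, had log2 fold changes of 1.58 (SE 0.14) and 1.61 (SE 0.12), and its LV_Sed range of 10.1 to 20.1 CPM was clear of 2.60 to 4.09 CPM in SM of the same rats. C1qa had 1.11 (SE 0.18) and 1.28 (SE 0.11), C1qc 1.22 and 1.29, and Mrc1 1.18 and 1.14. Csf1r, the receptor for the macrophage growth factor, had smaller values of 0.53 (SE 0.16) and 0.49 (SE 0.11). Cd68, a lysosomal protein, missed the threshold in Sed (0.43, SE 0.20, edgeR adjusted p = 0.061) and passed it in ExT (0.49, SE 0.17, edgeR adjusted p = 0.013). Cd163 had -0.01 (SE 0.20) and 0.01 (SE 0.14), and on nuclear-encoded totals 0.56 and 0.50 with adjusted p-values of 0.025 and 0.0052, so its direction rests on the scaling. The summed macrophage level in LV ran from 191 CPM (rat 16) to 443 CPM in Sed and from 223 CPM (rat 17) to 390 CPM in ExT.

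All 3 genes grouped as shared were higher in LV in both arms. Ptprc had log2 fold changes of 1.15 (SE 0.084) and 1.29 (SE 0.11). The myeloid adaptor Tyrobp had 0.80 and 0.89, and Aif1, a calcium-binding protein of macrophages, 1.59 and 1.57. Nkg7, which entered through LV and is described only, had 1.16 (SE 0.39) and 1.10 (SE 0.37). Prf1 and Cd8a were not called, with 0.36 (SE 0.26) and 0.60 (SE 0.46) in Sed. Lyz2 had 0.80 (SE 0.17) and 0.88, and was higher in LV in 7 of 7 rats of each arm.

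Mzb1 went the other way. In Sed rats its LV minus SM difference was -2.75 (SE 0.31, adjusted p = 1.0e-07 by edgeR) and in ExT rats -1.24 (SE 0.27, adjusted p = 0.00032), and LV was higher than SM in 0 of 7 rats of either arm. Under every alternative run for these comparisons in which it passed the filter, Mzb1 stayed lower in LV and called, at -2.18 and -0.75 on nuclear-encoded totals. Its neighbour Prob1 was also lower in LV, at -2.09 (SE 0.16) and -1.94 (SE 0.098), and the part of Prob1 in the Mzb1 values was not tested. Cxcl12 had -0.44 (SE 0.12, edgeR adjusted p = 0.0026) and -0.51 (SE 0.088), although its CPM was higher in LV in 5 of 7 Sed and 4 of 7 ExT rats. On nuclear-encoded totals these became 0.11 and -0.024 with adjusted p-values of 0.46 and 0.83, so the direction of Cxcl12 depends on the scaling.

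Wider lists of genes of the same pathways gave these counts in Sed rats, to be read against 40% of all genes higher and 38.6% lower. Of 24 further macrophage genes tested, 17 were higher in LV and 3 lower, with Lgmn, a lysosomal protease, at 2.09 (SE 0.074). Of 18 T and NK cell genes, 11 were higher, Il2rb (2.64) among them, and 4 lower, Tcf7 (-1.38) and Foxp3 (-1.92) among them. Of 21 interferon response genes, 18 were higher and 2, Bst2 (-3.19) and Cd274 (-0.89), lower. Of 14 genes of dendritic cells and MHC class II, 6 were higher, a share near that of all genes, and 0 lower. The class II alpha chain RT1-Da had 0.37 (SE 0.11, edgeR adjusted p = 0.0039), against 2.36 for its partner Cd74. Of 20 chemokines and cytokines, 12 were higher and 6 lower, with Cxcl9 at -3.08. Of 11 B and plasma cell genes, 3 were higher and 4 lower, and of 7 neutrophil and monocyte genes, 2 and 1. Fewer genes of some lists passed the count filter in the training comparison in SM. There it was 9 T and NK, 14 chemokine and cytokine and 11 dendritic and class II genes. The direction of genes that entered through LV, where their counts are higher, is a description and no support. The counts of these lists include such genes and are to be read with that limit.

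Markers of other cells were counted against the same shares of 40% and 38.6%. Of 9 endothelial genes, 5 were higher in LV and 1 lower, and of 8 fibroblast genes 5 and 2, in Sed rats. The 7 red blood cell genes summed to 91.5 to 312 CPM in SM_Sed and 80.9 to 1070 CPM in LV_Sed, Hbb-b1 being higher in LV by 1.52 (SE 0.44). The 5 platelet genes summed to 1.55 to 4.79 CPM and 5.88 to 10.8 CPM, and the 8 mast cell genes to 6.97 to 20.5 CPM and 30.5 to 38.2 CPM, where 1 of 6 mast cell genes tested was higher in LV and 3 lower. The part of blood left in the tissue in the immune values was not tested. Without rat 29, whose LV library was low in red blood cell genes, 22 of 27 members were called in Sed, against 21 with it, and Prf1 was among them at 0.61 (adjusted p = 0.036 by edgeR).

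The wider lists held no gene called by edgeR for training in SM or LV, against 0.206% of 13570 and 0% of 14488 genes. In SM this covered 23 macrophage, 21 interferon, 14 chemokine and cytokine, 11 dendritic and class II, 10 B and plasma, 9 T and NK, and 7 neutrophil and monocyte genes, with medians between -0.17 and 0.06. In LV it covered 25, 21, 22, 15, 14, 20 and 7 genes, with medians between -0.04 and 0.12.

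In the MT libraries the 34 members had medians from 5.04 to 221 CPM, against 0.0192 to 204 CPM in SM, with no correction for gene length. Genes that were near the floor in SM were among those with the larger differences. Cd3e had 29.6, 38.8 and 54.2 CPM in MT_Sed (lowest, median, highest) against 0, 0.144 and 0.288 CPM in SM_Sed. Ms4a1 had 7.45, 17.8 and 27.8 CPM against 0, 0.0573 and 0.193 CPM. Wdfy4 had 152, 237 and 269 CPM in MT_Sed against 2.98, 4.54 and 6.45 CPM in SM_Sed. Cxcl12 was lower in MT, at 49.6, 68.9 and 83.1 CPM in MT_Sed. Cd74 had 13.9, 43.8 and 58.6 CPM in MT_Sed, a range that spans the 26.2 to 56.7 CPM of SM_Sed.

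In the test of MT against SM, 22 of 33 members were higher in MT and 7 lower in Sed rats, against 61.7% and 33.1% of 22842 genes. In ExT rats 23 of 32 were higher and 5 lower, against 59.3% and 35% of 21312 genes. The members' medians of 1.535 and 1.93 stood beside 1.81 and 1.31 for all genes. Of the B and plasma cell and the T and cytotoxic genes, Mzb1 and Prf1 passed the count filter in SM alone. The other 8 entered through their MT counts, so that their direction was set by the filter, and their differences are over SM levels near 0 counts. Cx3cr1 and Il1b, and Ccl2 in Sed rats, entered through MT as well. The counts above include all of these genes, whose direction is a description and no support. Described so, all 10 B, plasma, T and cytotoxic genes were higher in MT in both arms. Cd3e was higher by 6.16 (SE 0.22) and 6.09 (SE 0.25) and Cd79b by 5.46 and 5.79. Lower were Cxcl12 at -3.48 (SE 0.103) and -3.80, Lyz2 at -3.14 (SE 0.165) and -2.67, and Cd74 at -2.19 (SE 0.14) and -1.98. C1qb had -1.08 and -0.86 and C1qc -1.39 and -1.06, but these turned to 1.06 and 1.204 and to 0.75 and 0.996 on nuclear-encoded totals. C1qa, at -0.79 and -0.002, turned to 1.35 in Sed, and Cd74 to -0.046 and 0.080. On that scale the median of all genes was 4.45 in Sed and 4.28 in ExT, and the members called were 30 higher and 2 lower in Sed and 31 and 2 in ExT. Lyz2 and Cxcl12 were lower there too, at -0.999 and -1.355 in Sed.

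A gene family with hardly any counts in whole muscle gave a gauge for these levels. The 1260 odorant and vomeronasal receptor genes, which serve smell in the nose, had a median of 0 CPM in SM and of 9.33 CPM in MT, with the middle 50% of genes between 5.81 and 16.9 CPM and the 95th percentile at 34.7 CPM. Of the 34 immune genes, 13 had an MT median above 34.7 CPM. The share of all genes above that level is not given here, so the count is a description only. In the training comparison in SM, 3 of the 1260 receptor genes passed the count filter, so no test of MT against SM is given for them. Gene order in MT was less like that in SM: Spearman's rho of the members' medians was 0.56 for SM with MT and 0.95 for SM with LV. The macrophage genes did not vary together in MT, with pairwise correlations from -0.40 to 0.42 and a median of -0.02 over 30 libraries. Nuclear-encoded totals were 430162 to 1055433 counts in MT against 13281629 to 26002757 in SM, so MT levels carry more counting error. Their part in the lower correlations was not tested.

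**Figure D5:**
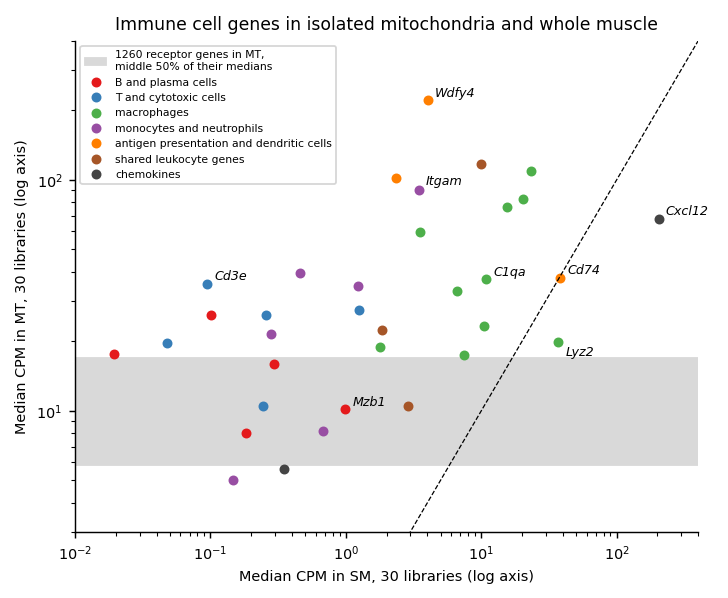
Median CPM of each of 34 immune cell genes in MT against SM, 30 libraries each, on log axes, coloured by role, with the line of equal levels dashed and the middle 50% of 1260 receptor genes in MT as a grey band. SM medians run from 0.0192 to 204 CPM, MT medians from 5.04 to 221 CPM, and Cxcl12 and Lyz2 lie below the dashed line.

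In MT, the comparison of ExT with Sed called none of 27 members with edgeR or DESeq2, against 0% of 19281 genes by edgeR, and 2 members and 912 of all genes had an unadjusted p under 0.05, the members being C1qa (0.32, SE 0.13) and Cd3e (-0.26, SE 0.13), both with an edgeR adjusted p of 1.0. The training effects of MT and SM were not called different for any of 34 members with edgeR or DESeq2, against 0.0181% of 27684 genes by edgeR. In that comparison 7 members and 2354 of all genes had an unadjusted p under 0.05, and C1qa had the smallest (difference 0.74, SE 0.23, unadjusted p = 0.0018, edgeR adjusted p = 0.32). The comparisons of MT with SM, of ExT with Sed and of their difference share the same SM libraries.

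Pairs of genes that work as partners were compared from rat to rat on log2(CPM + 0.1), with permutation tests of 100000 resamples and adjustment over 24 relations. In SM, C1qa followed C1qb (r = 0.86, rho = 0.78, both adjusted p = 8e-05, from the smallest p such a test can give), and Cd74 followed RT1-Da (r = 0.86, rho = 0.86, permutation, adjusted p = 8e-05). S100a8 followed S100a9 (r = 0.69, rho = 0.65, permutation, adjusted p = 0.00012 and 0.00084). Without the 2 rats farthest from the median these r values were 0.79, 0.84 and 0.60. Within Sed and ExT they were 0.85 and 0.85, 0.90 and 0.81, and 0.73 and 0.68. Cd79a with Cd79b (r = 0.22, rho = 0.23) and Cd3e with Cd3g (r = 0.16, rho = 0.23) did not pass at these counts. Mzb1 and Jchain ran against each other (r = -0.46, rho = -0.27, permutation, adjusted p = 0.041 and 0.24), and r was -0.13 without 2 rats, so the relation rests on those.

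In LV, C1qa followed C1qb (r = 0.95, rho = 0.94, permutation, adjusted p = 8e-05), with r = 0.88 without the 2 farthest rats. Cd74 with RT1-Da had r = 0.60 and rho = 0.60 (permutation, adjusted p = 0.053 and 0.087). S100a8 with S100a9 had r = 0.65 and rho = 0.21 (permutation, adjusted p = 0.058 and 0.64) and r = -0.33 without the 2 farthest rats. S100a9 followed the haemoglobin gene Hbb-b1 in LV, a relation looked at after seeing rat 29, with r = 0.86 and rho = 0.74 (permutation, adjusted p = 0.0024 and 0.012). It held without the 2 farthest rats (r = 0.82), and r was 0.96 in Sed and 0.63 in ExT. In SM the same pair had r = 0.45 and rho = 0.33 (permutation, adjusted p = 0.041 and 0.16), with r = 0.68 in Sed and -0.06 in ExT. Rat 29, lowest in the red blood cell genes, also had the lowest S100a9 of the LV libraries, at 0.218 CPM. The part of blood in the S100a9 values was not tested.

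Whether a rat with a high level in muscle also had a high level in heart was tested for 8 genes in the 14 rats with both. None passed: r was 0.32 for Mzb1, 0.16 for Cd3e, -0.03 for Jchain, -0.17 for Cd79a, -0.46 for S100a8, -0.18 for S100a9, -0.13 for Cd74 and -0.31 for C1qa, with adjusted permutation p-values from 0.18 to 0.93 for r and from 0.19 to 0.89 for rho. Without the 2 rats farthest from the median of the SM level, Mzb1 had r = 0.74 (permutation, adjusted p = 0.031), and the other 7 genes did not pass.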

How the data were processed

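The authors deposited 3 tables of counts, whole numbers per gene for 30560 genes, 1 table each for SM, MT and LV, with 74 library columns that all matched a sample title and 0 that matched none. The submitters' processing notes name FastQC 0.74, cutadapt 4.6, STAR 2.7.11a, HTSeq and the build mRatBN7.2, without their roles. The counting setting for strand is not given in the sources used here, so reads of a gene and an overlapping gene on the other strand cannot be told apart (Wdfy4 with Lrrc18, and Ms4a1, Mrc1, Adgre1 and Cx3cr1 with genes of their loci, by RefSeq names on GRCr8). RNA input was 50 ng (SM), 10 ng (MT) and 100 ng (LV), with a Zymo kit for SM and MT and an Illumina kit for LV, per the labels.

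Counts were tested with edgeR 4.0.16 (R 4.3.3): TMM, filterByExpr, robust quasi-likelihood fit, Benjamini-Hochberg adjustment over all genes tested, called under 0.05. DESeq2 1.42.0 was an alternative. SE is the log2 fold change over the root of F. Comparisons used only the libraries of their groups, and those with LV the 14 rats that gave it. Other alternatives were RLE scaling, library totals, nuclear-encoded totals, no mitochondrial-genome genes, no filter, rat range, each library left out, a replicate block and thinning. Members, lists and relations were chosen with earlier results of these data known. Full values were given for members called between LV and SM and for at least 1 member per role. From the wider lists at most 2 called genes per direction were named, from those of highest mean level; Prob1, Hbb-b1, RT1-Da and Cxcr4 were named as neighbour, blood marker, partner or receptor of a member. Scripts were tested on simulated data. Libraries with the same number were taken as the same rat from the titles and the series' design text. The counts do not show this pairing: deviations from group means correlated by a median of 0.019 for SM with LV (over 0.1 in 4 of 14 rats, lowest -0.14) and 0.014 for SM with MT (over 0.1 in 3 of 30). Comparisons within a rat rest on the labels. The least difference between libraries of a group was a chi-square per degree of freedom of 1.18, so no library was counted as a repeat. Correlations used numpy 2.4.6 and scipy 1.17.1.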

Additional observations from a re-analysis of the deposited data

Results flagged for a closer look

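In the LV groups of 7 rats, each member's highest and lowest library was compared with the rest of its group, for 68 combinations of gene and group, of which chance flags about 1 in 20. Ms4a1 in LV_ExT had 0.504 CPM in rat 18 (15 counts), and the next library had 0.262 CPM. Cd3e in LV_Sed had 0.444 CPM in rat 19 (17 counts), and the next library had 0.214 CPM. Both genes were too low to be tested for training, and no difference of training effect between tissues or rat ranges passed its test for any member.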

How the results depend on the processing

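The count of members called was within 1.5 times its reported value under every alternative except 3. Among rats 2 to 16 the training comparison in SM called 1 member, and after thinning to the smallest total MT minus SM called 9 members in Sed and 2 in ExT, where 9 and 3 passed the filter. With a replicate block for the rat, LV minus SM called 21 members in Sed and 23 in ExT, MT minus SM 29 and 29, and the 2 differences of training effect 0 each, so the pairing changed no call by over 1.5 times. Cd163 in LV minus SM turned to 0.24 (library totals), 0.029 (no filter), 0.001 (replicate block) and 0.56 (nuclear totals) in Sed, and to -0.011 (rat range) and -0.014 (replicate block) in ExT. S100a9 turned to 0.028 in Sed (nuclear totals) and -0.004 in ExT (thinned), and Cxcl12 to 0.11 in Sed (nuclear totals). In SM, Cxcl12 was -0.004 among rats 17 to 32. In MT minus SM on library totals, C1qa, C1qb and C1qc turned to 0.84, 0.50 and 0.19 in Sed, and C1qb and C1qc to 0.82 and 0.44 in ExT. On nuclear totals they were 1.35, 1.06 and 0.75 in Sed, and C1qb, C1qc and Cd74 were 1.204, 0.996 and 0.08 in ExT. Without the 2 farthest rats, r became -0.33 for S100a8 with S100a9 in LV and 0.18 for Jchain between tissues. Over all genes, training in SM called 28 with edgeR, 131 with DESeq2, 48 on nuclear totals, 45 with rat range, 396 among rats 2 to 16, 1 among rats 17 to 32, 15 without SM_Sed rats 11 and 24, and 12 (without SM_Sed rat 4) to 100 (without SM_Sed rat 23) with 1 library left out. The training effect of MT minus SM called 5, with DESeq2 32, with the block 3, and 0 on library totals or thinned. DESeq2 called 1 gene for training in LV and 1 for the difference of training effect between LV and SM, neither of them a member. Nuclear totals and the fits without rats 11 and 24 or without rat 29 were chosen after seeing the data. On library totals LV minus SM called 7226 genes higher and 4296 lower in Sed. MT minus SM called 17616 and 2811 on library totals and 20974 and 2296 on nuclear totals in Sed. The cause of these turns was not tested. Low counts limit the values of the B and T cell genes, which had a median of 5 counts or fewer in SM_Sed libraries apart from Mzb1 and Prf1.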
